A study of Homo sapiens with 8 samples.

Results

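Interferon-stimulated genes are the genes that cells switch on when interferon, the antiviral cytokine, reaches its receptor. A set of 36 of them was taken by gene name from the deposited tables, and all 36 had a row among the 22554 features. They were measured by sequencing of messenger RNA in SKOV3, an established human ovarian cancer cell line, in 8 samples. The control samples 1 to 4 were grown in ordinary McCoy's 5A medium with fetal bovine serum. LDL samples 1 to 4 were grown in the same medium with low-density lipoprotein (LDL), the main cholesterol carrier of blood, at 50 µg/mL for 48 h. Serum was present in both groups, no vehicle control is named in the labels, and all samples come from 1 cell line. Separate cultures are not stated, so the error behind each p-value is that among these 8 samples and could be purely technical.

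Type I interferon binds the IFNAR1 and IFNAR2 receptor chains, whose kinases JAK1 and TYK2 phosphorylate STAT2. Together with IRF9 it acts in a complex that binds the interferon-stimulated response element in the promoters of its target genes. The products block virus entry, sense or degrade viral RNA, attach the ubiquitin-like protein ISG15 to other proteins, or amplify the signal. Tumour cell lines often keep some of these genes on without added interferon.

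The response element is what most of the set has in common at the sequence level, and 6 promoters are shown because their genes carry the comparisons below or are classical targets. The search used the core GAAANNGAAA and its reverse complement TTTCNNTTTC in the 250 bases before each RefSeq gene start (GRCh38.p14), with overlapping matches allowed. Of the 36 members, 29 had a promoter in the table, and 19 of those 29 (65.5%) held a match in at least 1 window, against 3.71% of all 27305 genes. IFIT2, IFITM2, IRF7, MX2, OAS2, OASL and USP18 had no entry. Each run below is 100 bases long, 5′ to 3′ in the direction of its gene, with matches to the core in capitals, which run together where they overlap. Their positions are IFITM3 chr11:320861-320960 (minus strand), BST2 chr19:17405700-17405799 (minus strand), IFI6 chr1:27672231-27672330 (minus strand), OAS3 chr12:112938374-112938473 (plus strand), ISG15 chr1:1013345-1013444 (plus strand) and IFIT1 chr10:89392475-89392574 (plus strand).
IFITM3: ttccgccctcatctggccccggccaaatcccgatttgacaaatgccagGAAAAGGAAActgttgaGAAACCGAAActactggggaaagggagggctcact
BST2: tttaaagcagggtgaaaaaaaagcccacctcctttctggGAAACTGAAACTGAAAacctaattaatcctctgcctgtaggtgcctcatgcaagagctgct
IFI6: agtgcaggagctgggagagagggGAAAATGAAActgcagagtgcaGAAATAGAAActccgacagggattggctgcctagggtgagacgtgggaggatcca
OAS3: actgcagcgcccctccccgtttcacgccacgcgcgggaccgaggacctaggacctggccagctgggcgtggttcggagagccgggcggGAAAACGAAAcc
ISG15: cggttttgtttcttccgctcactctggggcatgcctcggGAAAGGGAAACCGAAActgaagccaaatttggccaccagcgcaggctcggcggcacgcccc
IFIT1: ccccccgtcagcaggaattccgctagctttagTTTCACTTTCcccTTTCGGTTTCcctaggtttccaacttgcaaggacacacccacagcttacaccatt
In BST2 and ISG15 the capitals are 2 overlapping matches, and in IFITM3, IFI6 and IFIT1 there are 2 separate ones in the run. The gamma-activated site core TTCNNNGAA, which is its own reverse complement, was found in 9 of the 29 members (31%) and in 8.09% of all genes. DTX3L, HERC6, RNF213, SAMD9L, STAT2 and XAF1 held neither core in their windows. A match is a description of the letters and not a measured binding site.

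Total counts ran from 37189698 to 44883561 in control and from 34682501 to 36780334 in LDL samples, so each LDL library was the shallower. The epithelial receptor gene ERBB2, known to be amplified in SKOV3, stood at 2590 CPM (counts scaled to a common library total) in control and 2515 in LDL samples, and PAX8, a marker of ovarian carcinoma, at 387 and 410 CPM. The 8 markers of ovarian carcinoma epithelium summed to 5457 to 5890 CPM in control and 5615 to 6245 in LDL samples. Of these, EPCAM (21.8 and 25.1 CPM) and the low MUC16 (0.88 and 0.439 CPM) had an unadjusted p under 0.05 in edgeR, and WT1 was also under 1 CPM. Of 12 leukocyte markers 11 were under 1 CPM, and PTPRC, MS4A1, ITGAM and HLA-DRA had no count in any library (a floor of 3 counts is 0.0673 to 0.0872 CPM). The summed level of the list, nearly all of it the lysosomal gene CD68, was 39.41 to 50.61 CPM in control and 49.68 to 53.82 in LDL samples. CD68 also had an unadjusted p under 0.05 (log2 fold change 0.19, edgeR unadjusted p = 0.0237, adjusted p = 0.849). The 7 fibroblast markers summed to 386.4 to 406.4 CPM in control and 172.6 to 445 in LDL samples, with COL1A1 in LDL sample 4 (146 CPM) the low value. The part of these markers in the results below was not tested. Mitochondrial genes took 2.66% to 2.99% of counts, lowest in LDL sample 1. In a principal component analysis LDL sample 4 stood apart on component 1, with a score of -34.06, while the other 7 libraries scored -1.83 to 11.06. In bulk RNA a smaller number of cells with a high level and a lower level in every cell cannot be told apart.

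SKOV3 cells kept most of the set on at a low level, and a few members at a high one. Levels are compared between genes as deposited FPKM, which scales fragments to gene length and library size. IFITM3, a membrane protein that blocks virus fusion in endosomes, was by far the most abundant, at 502 to 529 FPKM in control and 510 to 589 in LDL samples. It took 24.6% to 29.5% of all counts of the 36 genes. IFITM2, its close relative, followed at 90 to 108 FPKM in control and 101 to 144 in LDL samples. BST2, or tetherin, which holds budding virus at the cell surface, lay beside it at 92.6 to 102 FPKM in control and 102 to 109 in LDL samples. The ranges of IFITM2 and BST2 overlap, so their order is not settled. ISG15 came next at 32.2 to 38.8 FPKM in control and 30.9 to 44.8 in LDL samples, followed by IFITM1 with overlapping values. In all, 11 members had a mean of at least 10 FPKM, 18 lay between 1 and 10 and 7 lay under 1.

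**Figure D1:**
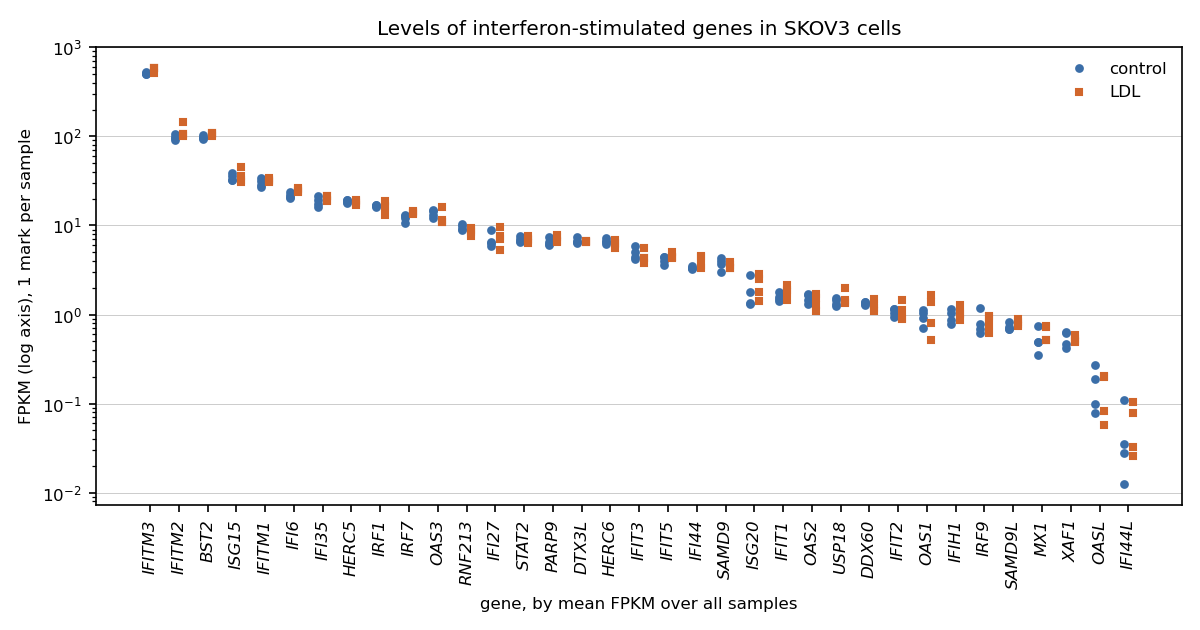
Deposited FPKM (log axis) of 35 members, 1 mark per sample, circles for control and squares for LDL, ordered by the mean over all 8 samples. IFITM3 stands at 502 FPKM or more in every sample and OASL and IFI44L lie below 0.3; MX2, listed at 0 FPKM in 7 of 8 samples, is not drawn.

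At the low end were some genes that respond strongly to interferon in most cells. Not all such genes were low: IFI27 averaged 7.17 and ISG15 35.43 FPKM over all 8 samples. The 7 members under 1 FPKM were MX1, MX2, IFI44L, OASL, IRF9, SAMD9L and XAF1. MX1, the dynamin-like GTPase that traps influenza nucleoprotein, had counts of 79, 68, 55 and 118 across controls 1 to 4, and 98, 96, 67 and 66 with LDL. Its relative MX2 had a count of 0 in all libraries but LDL sample 4, which had 4. IFI44L, an interferon-induced gene of little-known function, had 7, 9, 3 and 30 counts in control and 8, 6, 17 and 23 in LDL samples. These groups overlap, and MX2 and IFI44L were too low to pass the count filter. The other 34 members were tested.

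With LDL no member passed the test over all genes. The quasi-likelihood test of edgeR called 0 of 34 members at an adjusted p under 0.05, where 10 of 15432 features (0.0648%) were called, and the smallest adjusted p among members was 0.625. DESeq2 also called 0 members. At an unadjusted p under 0.05 edgeR gave 5 members, and its share over all features was 5.59%. DESeq2 also gave 5, but its share over all features was not taken, so that count has no background beside it. Of the 5, 4 were higher with LDL (IFITM2, IFITM3, BST2 and IFI6; 2.88% of all features) and 1 was lower (RNF213; 2.72% of all features). Log2 fold changes ran from -0.20 to 0.27 with a median of 0.061, and 21 lay above 0 and 13 below. The median over all tested features was 0.006. For 25 of the 34 members the 95% interval lay within 0.5 of 0 on the log2 scale, while the low genes had wider ones, up to -1.10 to 0.91 for OASL.

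**Figure D2:**
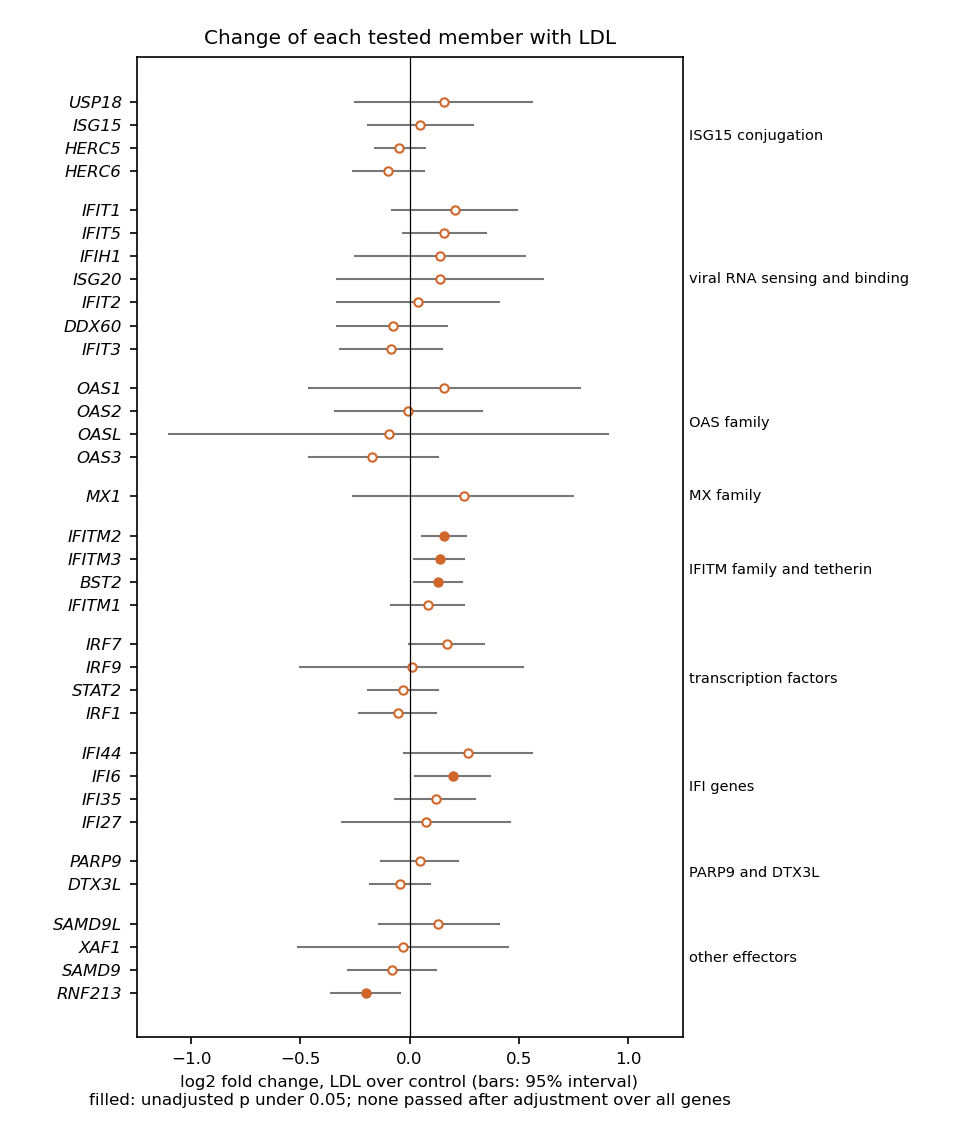
Log2 fold change (LDL over control) of the 34 tested members with 95% intervals, in role groups; filled points have an edgeR unadjusted p under 0.05. All points lie between -0.20 and 0.27, the filled ones are IFITM2, IFITM3, BST2, IFI6 and RNF213, and OASL has the widest interval.

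The membrane-bound antiviral genes were the group with the most members at a low p: all 4 lay above 0 and 3 had an unadjusted p under 0.05. With 1 sample left out the number of these genes at that p was 3 in 4 fits and 1, IFITM2, in the other 4 (without LDL sample 2 or 3, or control sample 1 or 3). The share of all features at that p was not taken in those fits. Among the 4 fits with 3 genes was that without LDL sample 1. There 149 of 15625 features passed after adjustment, against 10 of 15432 with all samples. IFITM2 had the smallest p of the set. It measured 92.7, 95.1, 90.7 and 95.5 CPM across controls 1 to 4, and 102, 105, 106 and 104 CPM across LDL samples 1 to 4. All 4 LDL samples lay above all 4 controls, by 11.6% on average (log2 fold change 0.16, SE 0.0481, edgeR unadjusted p = 0.00443, adjusted p = 0.625). Non-overlapping groups with LDL higher were found for 1.74% of all features. In the set IFITM2 and IRF7 had them, 2 of 34 genes. The deposited FPKM of IFITM2 did not separate the groups, since LDL sample 3 (101 FPKM) lay below control sample 3 (108 FPKM).

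IFITM3 measured 325, 332, 329 and 344 CPM in control and 323, 383, 383 and 373 CPM in LDL samples. LDL samples 2, 3 and 4 lay above every control, and LDL sample 1 lay below them. This gave a log2 fold change of 0.14 (SE 0.0542; adjusted p = 0.849 in edgeR), and without LDL sample 1 it was 0.19 and passed over all genes (edgeR adjusted p = 0.0293). BST2 measured 99.2, 102, 98.4 and 108 CPM in control and 105, 112, 115 and 114 CPM in LDL samples. Here control sample 4 lay within the LDL range and the other controls below it (log2 fold change 0.13, SE 0.0525, edgeR adjusted p = 0.849). IFITM1, the family member found mostly at the cell surface, measured 22.5, 23, 21.1 and 24.1 CPM in control and 22.7, 23.7, 26.7 and 23 CPM in LDL samples, and these overlap.

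The IFITM genes lie close together on chromosome 11 and their transcripts are alike, so counts may move between them. IFITM2 spans 307631 to 315272 and IFITM1 313506 to 315272 on the plus strand, and IFITM3 319669 to 327537 on the minus strand (GRCh38, GENCODE release 29). The annotated span of IFITM2 thus covers all 1767 bases of IFITM1 on the same strand. Of all 50-base stretches in their annotated transcripts, 32% in IFITM1, 34.1% in IFITM2 and 17.4% in IFITM3 also occur in another gene. With the counts of all 3 summed, which was added once the values were known, the family measured 440, 450, 441 and 463 CPM in control and 447, 511, 516 and 501 CPM in LDL samples. The sum had a log2 fold change of 0.14 (SE 0.0499, edgeR adjusted p = 0.805).

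**Figure D3:**
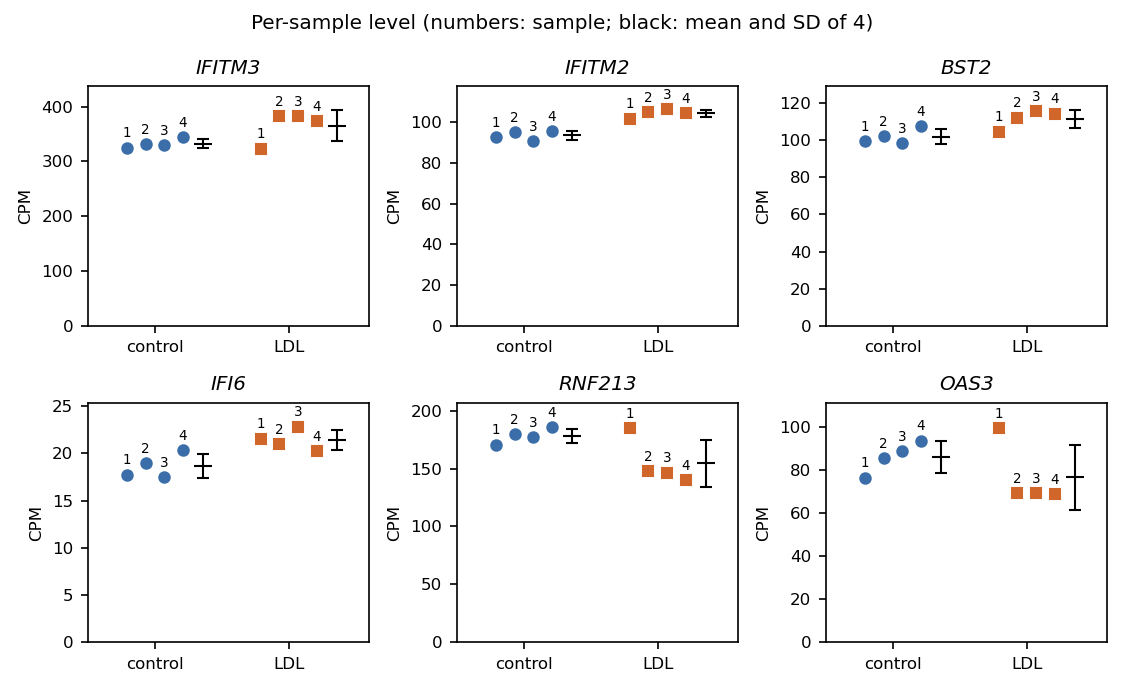
CPM per sample (axis from 0) of 6 members, with the sample number over each mark and the mean and SD of 4 samples in black. LDL sample 1 sits with the controls in IFITM3 and RNF213 and above them in OAS3, while the other 3 LDL samples lie between 373 and 383 CPM in IFITM3 and between 140 and 148 CPM in RNF213.

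RNF213 was the 1 member below control at an unadjusted p under 0.05. It encodes a very large ubiquitin ligase with an ATPase core that coats invading microbes, is linked to lipid droplets and is best known as the moyamoya disease gene; its GENCODE span is chr17, 80260866 to 80398786, plus strand. It measured 170, 179, 177 and 186 CPM in control samples and 185, 148, 147 and 140 CPM in LDL samples. LDL samples 2, 3 and 4 lay below every control, and LDL sample 1 lay near the top of the control range. This gave a log2 fold change of -0.20 (SE 0.0736; adjusted p = 0.822 in edgeR). Without LDL sample 1 it was -0.30, to 0.813 of control, and passed (edgeR adjusted p = 0.0047).

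OAS3, the largest of the synthetases that make the RNase L activator 2-5A from double-stranded RNA, also had LDL samples 2, 3 and 4 below every control; it was singled out after its values were seen. It measured 76.4, 85.5, 88.8 and 93.5 CPM in control and 99.3, 69.2, 69.3 and 68.7 CPM in LDL samples. LDL sample 1, in contrast, was the highest of all 8. Over all samples OAS3 had a log2 fold change of -0.17 (SE 0.128; adjusted p = 0.91 in edgeR), and without LDL sample 1 it was -0.32 (edgeR adjusted p = 0.0279). RNF213, OAS3 and IFITM3 were the 3 members called in that fit, in which 0.954% of 15625 features were called. None of them was called with any other sample left out, and LDL sample 1 is named here because leaving it out gave these calls.

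The further OAS genes were low and spread widely. OAS1, the smallest synthetase, averaged 2.26 CPM in control and 2.52 in LDL samples, with LDL samples ranging from 1.15 in sample 4 to 3.46 in sample 2. OAS2 measured 5.08 ± 0.68 and 5.05 ± 0.819 CPM (SD, n = 4 each), and OASL, which binds the RNA sensor RIG-I and makes no 2-5A, 0.466 ± 0.165 and 0.437 ± 0.228 CPM. Their groups overlap. OAS1, OAS3 and OAS2 are neighbours on chromosome 12 from 112906777 to 113011723. Over all 8 samples OAS3 averaged 13.02 FPKM, against 1.014 for OAS1 and 1.472 for OAS2.

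The IFI genes all lay above 0, with 1 of 4 tested at an unadjusted p under 0.05. IFI6, a small membrane protein of mitochondria and endoplasmic reticulum that hinders flavivirus replication, measured 17.8, 19, 17.5 and 20.3 CPM in control and 21.6, 21, 22.8 and 20.2 CPM in LDL samples. Control sample 4 and LDL sample 4 crossed by a small margin, and the other samples were separate (log2 fold change 0.20, SE 0.0821, edgeR adjusted p = 0.858). IFI44, a cytoplasmic protein induced in hepatitis C infection, measured 5.94, 5.79, 5.73 and 5.48 CPM in control and 7.6, 6.22, 8.05 and 5.74 CPM in LDL samples. It had the largest log2 fold change of the set at 0.27 (SE 0.138, edgeR adjusted p = 0.879), carried by LDL samples 1 and 3, and LDL sample 4 lay within the controls. The log2 fold change of IFI44 was 0.22 without LDL sample 1 and 0.35 without LDL sample 4, and neither passed. IFI35, a partner of NMI, measured 24.5, 22.4, 20.6 and 27 CPM in control and 26.7, 24.4, 27.1 and 24.3 CPM in LDL samples (log2 fold change 0.12, edgeR adjusted p = 0.902), and these groups overlap. IFI27, one of the genes most responsive to type I interferon, stood at 4.69 ± 0.846 CPM in control and 4.94 ± 1.11 in LDL samples (SD, n = 4 each).

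Among the transcription factors, IRF7 had the smallest p. IRF7, which drives the second wave of interferon genes, measured 23.4, 21.5, 27 and 26.4 CPM in control and 27.6, 27.1, 28.5 and 27.1 CPM in LDL samples. All LDL samples lay above all controls, with LDL sample 2 just over control sample 3. This separation was lost with DESeq2 and with each other normalization and count filter tried in edgeR. This gave a log2 fold change of 0.17 (SE 0.0805; adjusted p = 0.879 in edgeR). IRF1, an activator of the interferon beta promoter, stood at 57.9 ± 2.76 CPM in control and 55.8 ± 7.33 in LDL samples (SD, n = 4 each), with LDL sample 4 the lowest of 8 at 45.1 CPM. Its log2 fold change was -0.054 with that sample and 0.036 without it. STAT2, which carries the receptor's signal to the nucleus, stood at 32.2 ± 2.11 and 31.5 ± 2.24 CPM.

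The level of IRF9, which gives the STAT2 complex its DNA binding, is uncertain in these tables. IRF9 itself had counts of 67, 93, 64 and 72 in control and 54, 77, 59 and 71 in LDL samples. It lies on chromosome 14 from 24161053 to 24166565, and an annotated read-through gene, ENSG00000259529, covers all 5513 bases of it on the same strand. That gene had counts of 1618, 1479, 1429 and 1822 in control and 1797, 1008, 1075 and 1137 in LDL samples, 20.4 times as many as IRF9 in all, and 43.6% of the 50-base stretches of IRF9 also occur in another gene, nearly all in this one. Both were also summed, which was added later, and most of that sum is the read-through gene and not IRF9 itself. The sum was 40.8, 41.9, 38.6 and 42.5 CPM in control and 50.1, 31.5, 32.7 and 34.7 CPM in LDL samples. LDL sample 1 was again the highest and the other 3 LDL samples the lowest. The sum had a log2 fold change of -0.14 (SE 0.133; adjusted p = 0.932 in edgeR) and IRF9 alone one of 0.013 (SE 0.242). Without LDL sample 1 the read-through gene passed as lower, at 0.792 of control (edgeR adjusted p = 0.0281), and IRF9 alone did not pass, at a log2 fold change of 0.11. In that fit 0.954% of 15625 features were called.

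Genes that sense or bind viral RNA did not move in 1 direction: 5 of 7 lay above 0 and none had an unadjusted p under 0.05. IFIT1, which binds RNA that lacks the host cap mark, measured 6.33, 8.03, 7.13 and 6.76 CPM in control and 9.47, 8.49, 8.07 and 6.55 CPM in LDL samples. LDL samples 1 to 3 lay above every control and LDL sample 4 within them (log2 fold change 0.21, SE 0.135, edgeR adjusted p = 0.884). Without LDL sample 4 the log2 fold change of IFIT1 was 0.30 (edgeR adjusted p = 0.897). IFIT5, its relative on the same cluster of chromosome 10, measured 17.2, 17.6, 16.2 and 14.9 CPM in control and 17.6, 18.2, 20.4 and 17.3 CPM in LDL samples (log2 fold change 0.16, SE 0.0904, edgeR adjusted p = 0.884). IFIT2 and IFIT3, which join IFIT1 in a complex, had log2 fold changes of 0.040 and -0.086, so neighbours in this cluster lay on both sides of 0. IFIT1, IFIT2 and IFIT3 lie within LIPA on the opposite strand, and since the strand setting of the counting is not known their counts are uncertain. IFIH1, which encodes the RNA sensor MDA5, stood at 3.27 ± 0.486 CPM in control and 3.6 ± 0.636 in LDL samples (SD, n = 4 each). The helicase gene DDX60 stood at 8.99 ± 0.37 and 8.54 ± 1.11 CPM, and the exonuclease gene ISG20 at 2.86 ± 0.695 and 3.15 ± 0.762 CPM. MX1, described above, had a log2 fold change of 0.25 (SE 0.239).

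The ISG15 system was balanced around 0. ISG15, the ubiquitin-like modifier, measured 21.4, 24.7, 22.6 and 26.6 CPM in control and 20.7, 24.6, 30.9 and 22.3 CPM in LDL samples. LDL sample 3 was the highest of all and LDL sample 1 the lowest, and the groups overlap (log2 fold change 0.047, 95% interval -0.19 to 0.29). HERC5, the ligase that attaches ISG15, stood at 68.9 ± 2.57 CPM in control and 66.8 ± 2.65 in LDL samples (SD, n = 4 each), and its relative HERC6 at 26.4 ± 1.7 and 24.7 ± 1.76 CPM. USP18, which removes ISG15 and dampens the receptor, stood at 2.69 ± 0.252 and 2.99 ± 0.595 CPM; 23.4% of its 50-base stretches also occur in other genes, mostly the related USP41, so its count is uncertain.

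The last 5 members had log2 fold changes from -0.078 to 0.13, and the 95% interval of each held 0. PARP9 and DTX3L encode an ADP-ribosyltransferase and a ubiquitin ligase that work as a pair, and the genes lie head to head on chromosome 3 with 340 bases of overlap on opposite strands. PARP9 stood at 26 ± 2.39 CPM in control and 26.8 ± 2.33 in LDL samples (SD, n = 4 each), and DTX3L at 41.1 ± 2.73 and 39.9 ± 0.876 CPM. SAMD9 and SAMD9L, neighbours on chromosome 7 that restrict poxviruses, had log2 fold changes of -0.078 and 0.13 (95% interval of SAMD9L -0.14 to 0.41). XAF1, a partner of the apoptosis inhibitor XIAP, stood at 1.9 ± 0.412 and 1.86 ± 0.105 CPM. None of these 5 had an unadjusted p under 0.05 in edgeR.

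Seen by sample, the 34 members did not move together with LDL. Their mean log2 level, relative to the mean of all libraries, was -0.073, -0.0088, 0.0023 and -0.011 across controls 1 to 4, and 0.067, 0.041, 0.037 and -0.055 in LDL samples 1 to 4. LDL samples 1 to 3 lay above the controls and LDL sample 4 below all of them but control sample 1. LDL sample 3 was the highest of the 8 for 12 members. LDL sample 4 was the lowest of the LDL samples for 15 members and LDL sample 1 for 10. The role groups were led by different libraries. The mean level of the OAS family was highest in LDL sample 1 (0.42) and lowest in LDL sample 4 (-0.47). Each gene counts equally in that mean. In LDL sample 4 the low OAS1 and OASL had their lowest values (1.15 and 0.201 CPM). OAS3 there (68.75 CPM) was near LDL samples 2 and 3 (69.16 and 69.3 CPM). OAS2 there was the highest of the LDL samples (5.80 CPM). The IFITM and tetherin group, in contrast, was highest in LDL sample 3 (0.14) and had its lowest LDL value in sample 1 (-0.033). Without LDL sample 4, 6 members had groups that did not overlap, all higher (IFI44, IFI6, IFITM2, IFIT5, IFIT1 and IRF7; 17.6% of 34, against 6.29% of all features). Without LDL sample 1 there were 4 higher (IFITM3, IFITM2, IRF7 and BST2) and 2 lower (RNF213 and OAS3), or 17.1% of 35 against 14.3% of all features. With any other sample left out the share was 5.71% to 8.82% of tested members, against 5.22% to 6.44% of all features.

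**Figure D4:**
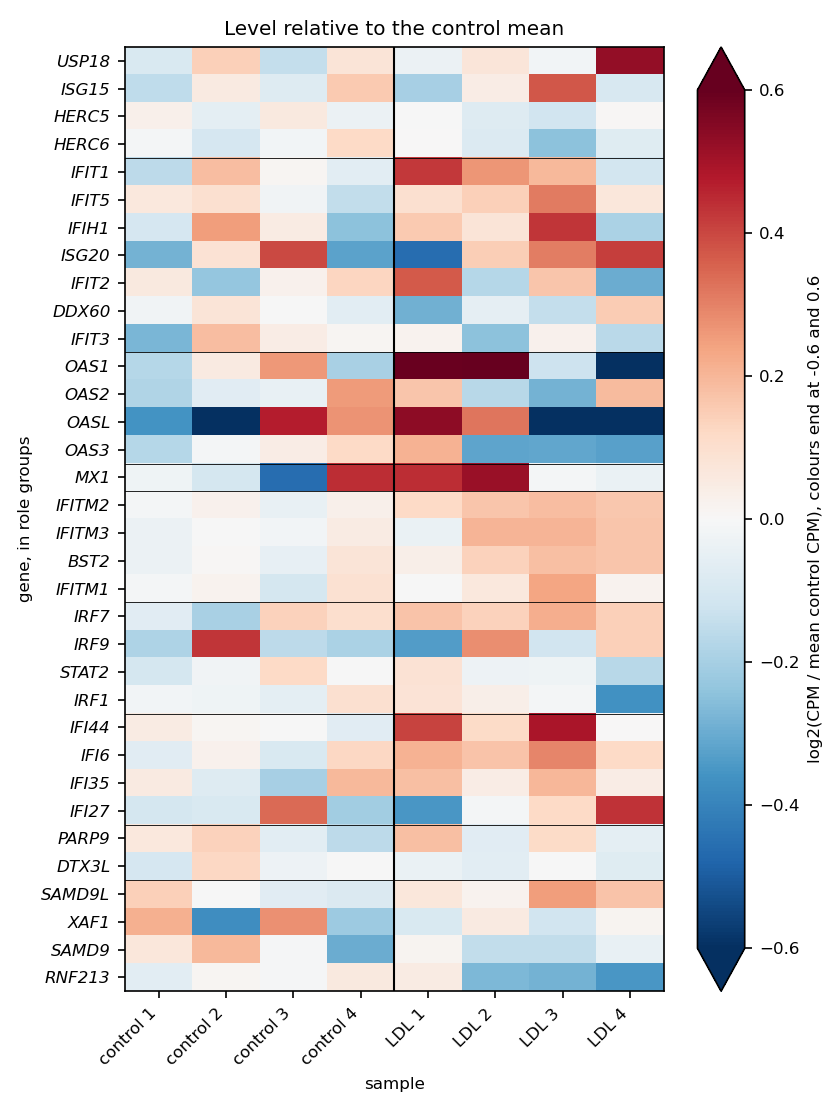
Log2 of CPM over the mean control CPM for 34 members (rows, in role groups) in 8 samples (columns); red is above the control mean and blue below. RNF213 and OAS3 are blue in LDL samples 2 to 4 and not in LDL sample 1, and OAS1 and OASL change colour between LDL samples.

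Upstream of these genes, the listed interferons other than IFNE were not detected or nearly so. Of 10 ligand genes 7 had no count in any library, among them IFNB1, IFNG and IFNL1; 3 counts, the limit used for 0, are 0.0673 to 0.0872 CPM. IFNA1 and IFNW1 reached at most 4 and 2 counts. IFNE, the interferon of the female reproductive tract, was the 1 ligand that could be tested, at 0.942 CPM in control and 0.86 in LDL samples (log2 fold change -0.13, edgeR adjusted p = 0.977).

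The receptor chains and signalling proteins were present and near their control levels. IFNAR1 measured 42, 38.4, 40.5 and 40.1 CPM in control and 44.6, 41.1, 43.3 and 43.8 CPM in LDL samples, and had the smallest p of its list (log2 fold change 0.10, edgeR adjusted p = 0.884). IFNAR2 stood at 41.1 and 40.5 CPM, JAK1 at 449 and 418 CPM, and TYK2 at 76 and 77.1 CPM in control and LDL samples. The receptor chain of type III interferon, IFNLR1, had at most 6 counts in a library. Of the 10 tested genes in this list 0 passed in edgeR and 0 had an unadjusted p under 0.05, with 5 above and 5 below 0.

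Across all 5 lists of other pathway genes, each gene counted once, 0 of 77 tested genes passed in edgeR, and 4 (5.19%) had an unadjusted p under 0.05, near the 5.59% of all features. In the sensing list, STING1, the adaptor for cytosolic DNA, measured 42.8, 46, 45.3 and 51.6 CPM in control and 51.3, 56.2, 56.5 and 52.6 CPM in LDL samples (log2 fold change 0.22, SE 0.0672, edgeR adjusted p = 0.625). Its DNA sensor CGAS had at most 4 counts in a library, and the sensors AIM2 and ZBP1 had 0 in all 8. In the list of negative regulators CISH had the smallest p (log2 fold change 0.23, edgeR adjusted p = 0.884). In the list of other interferon-stimulated genes, 21 lay above and 23 below 0 with a median of -0.0087. NLRC5, the activator of MHC class I genes, had the smallest p there and measured 27.5, 31.6, 29.8 and 29 CPM in control and 27.3, 23.8, 24.2 and 21.5 CPM in LDL samples. All its LDL samples lay below all controls (log2 fold change -0.28, SE 0.0813, edgeR adjusted p = 0.534), as they did in DDX60L, a relative of DDX60 (log2 fold change -0.21, edgeR adjusted p = 0.802). Such a separation with LDL lower was found for 1.71% of all features. Without LDL sample 1, NLRC5 (0.786 of control, edgeR adjusted p = 0.0407) and ADAR, the RNA editing enzyme (0.863 of control, edgeR adjusted p = 0.0366), passed as lower. In that fit 0.954% of 15625 features were called, against 0.0648% of 15432 with all samples. The chemokine genes CXCL10 and CXCL11 reached at most 5 and 2 counts and RSAD2, which encodes viperin, at most 10.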

How the data were processed

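Messenger RNA of 8 SKOV3 samples was sequenced from stranded TruSeq libraries (per the labels' protocols). The authors deposited whole-number counts and FPKM of 22554 features. Tools listed in the submitters' processing notes are featureCounts, HISAT2 and DESeq2 1.26.0, with GRCh38 as build; their roles, the annotation and the strand setting are not known here. Of the deposited counts from 1 to 20, 55.2% were even, so they were handled as estimated counts.

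The main test was edgeR 4.0.16 (R 4.3.3): quasi-likelihood, TMM, filterByExpr (15432 features kept), robust dispersion, group as sole term, Benjamini-Hochberg adjustment over every tested feature, threshold 0.05. Alternatives used other normalizations and filters, DESeq2 1.42.0, limma 3.58.1 (voom, or log2 FPKM with a pseudocount of 1 or 0.1 over genes averaging 0.5 FPKM or more, or over all), a replicate block, and each sample left out. Within-group library pairs had a chi-square per degree of freedom of 6.84 to 28.9, so none looked like the same library sequenced again. The value cannot tell separate cultures from repeat preparations of 1 culture. The biological coefficient of variation was 12.6%. Limits for a count of 0 reflect counting error alone.

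The members and lists were chosen with earlier results of these data known. Values by sample are given for the 10 tested members with the smallest p, the 4 with the highest mean FPKM and any with a 2-fold change (none had one). OAS3, MX1, MX2, IFI44L, IFITM1, IRF9, its read-through gene, ADAR, COL1A1, CD68, EPCAM, MUC16, WT1, DDX60L and the untested low genes were added after their values were seen. Values of 1 gene of the receptor and kinase list are not reported here. Positions came from GENCODE release 29 on GRCh38.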

Additional observations from a re-analysis of the deposited data

Results flagged for a closer look

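In groups of 4 samples, 1 sample stood far from the other 3 in 4 of 68 groups of member values, by Dixon's test at its 95% critical value; chance flags about 1 in 20 groups, or 3.4 here. OAS3 in LDL sample 1 stood at 99.34 CPM against 68.75 to 69.3 in the other LDL samples. IFITM3 in LDL sample 1 stood at 322.8 CPM against 373.2 to 382.7. USP18 in LDL sample 4 stood at 3.875 CPM against 2.623 to 2.819. IRF9 in control sample 2 stood at 2.481 CPM against 1.616 to 1.653 in the other controls, a gene whose count is uncertain beside its read-through gene.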

How the results depend on the processing

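No member passed over all genes in any of the 18 other fits except the one without LDL sample 1, where 1 was higher (IFITM3) and 2 were lower (RNF213 and OAS3); with each sample left out the counts ran from 0 to 1 higher and from 0 to 2 lower, and from 0 to 2 other pathway genes passed. The count of members at an unadjusted p under 0.05 ran from 2 to 7 with 1 sample left out. The share over all features at that p was not taken in those fits, so these counts have no background beside them. The number of members with non-overlapping groups was 1 with DESeq2, either other normalization in edgeR, either other filter and all 3 FPKM fits. There IRF7 (counts) or IFITM2 (FPKM) no longer separated. The number ran from 2 to 6 with 1 sample left out. That was 5.71% to 17.6% of tested members, against 5.22% to 14.3% of all features. The median of the members ran from 0.055 to 0.11 with 1 sample left out, and 0.11 was the value without LDL sample 1. Over all features, DESeq2 called 43, the 3 FPKM fits 4, 2 and 3 (pseudocount 1, pseudocount 0.1 and no minimum), and fits with 1 sample left out from 2 (without control sample 3) to 149 (without LDL sample 1). With the replicate block 2 features and 0 members passed; correlations of deviations between same-numbered samples were -0.116, 0.101, 0.0537 and 0.0455, so the numbers were not taken as pairs. ISG15 changed sign without LDL sample 3 (-0.08) and without control sample 1 (-0.0053), in a range up to 0.12. IRF9 changed sign with its read-through gene summed (-0.14) and in 5 fits with a sample left out, over which it ran from -0.09 to 0.19. The causes were not tested. Depth limits MX2, IFI44L and OASL, whose counts were at most 30 in any library.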
